A study of Homo sapiens with 18 samples.

Results

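The genes described here are 9 kinases and adaptors that carry the signal of the B-cell receptor from the cell membrane inward: SYK, BTK, BLNK, PLCG2, PRKCB, RASGRP3, DAPP1, BCL10 and MALT1. They were taken by gene symbol from a table of 58735 genes, and each symbol matched exactly 1 row. All 9 were measured well enough to test. They come from sorted cells of OCI-Ly18, an established line of human diffuse large B-cell lymphoma labelled with GFP and grown under the skin of NSG mice, which lack lymphocytes of their own. Vehicle or the EZH2 inhibitor tazemetostat (EPZ6438, 150 mg/kg each day by oral gavage) was given for 14 days, beginning 3 days after implantation, and CART19 cells, T cells engineered with a chimeric antigen receptor, followed in every mouse. Tumours were taken 11 days after the infusion. There were 3 vehicle mice (M_766, M_769 and M_770) and 3 tazemetostat mice (M_767, M_768 and M_774), each with libraries A, B and C, so that both groups had received CART19 cells and only 1 cell line was studied. Mice given UTD cells were not analysed here.

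When antigen binds the B-cell receptor, Src-family kinases phosphorylate its CD79A and CD79B chains, and the kinase SYK docks on them. SYK phosphorylates the adaptor BLNK, on which the kinase BTK activates the phospholipase PLCG2. The products of PLCG2 release calcium and recruit protein kinase C beta (PRKCB) and the RAS activator RASGRP3. Downstream of PRKCB, the adaptor BCL10 and the protease MALT1 act together to switch on NF-kB. DAPP1 is an adaptor that binds the lipid products of PI3-kinase. Several of these proteins are drug targets in B-cell lymphoma.

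The 18 libraries held 16124494 to 26336269 counts and the sums per mouse 55712115 to 69816184. B-cell markers were abundant in every mouse, with a summed level of 2890 to 3336 CPM (counts scaled to a library of fixed size) in vehicle and 2968 to 3035 CPM in tazemetostat mice over 8 genes, all of them detected. The T-cell genes CD3D and CD3G had 0 counts in all 6 mice and CD3E had 1 to 9. The 14 T-cell markers summed to 215 to 305 CPM with vehicle and 238 to 249 CPM with tazemetostat, nearly all from IL7R and CD247. Of these, CD247 was higher in each tazemetostat mouse (36.6 ± 5.82 CPM with vehicle, 49.2 ± 3.95 CPM with tazemetostat, SD, n = 3 each, log2 fold change 0.43, edgeR adjusted p = 0.465), while IL7R overlapped (log2 fold change -0.23). The 8 myeloid markers summed to at most 1.47 CPM and the 7 stromal and endothelial markers to at most 6.05 CPM, among them PDGFRB, which was also higher in each tazemetostat mouse (0.247 ± 0.113 and 0.618 ± 0.178 CPM, edgeR adjusted p = 0.496). CD247 and PDGFRB were singled out after their values were seen, and their part in the differences of the members was not tested. The sum of genes induced by tissue dissociation and other stress separated the groups: 24 genes summed to 1215 to 1743 CPM with vehicle and 1895 to 2476 CPM with tazemetostat. Of 22 tested with edgeR, 13 had an unadjusted p under 0.05, all higher, against 3.34% of all genes in that direction. An adjusted p under 0.05 was reached by 0 of them. The groups did not overlap for 11 of the 22, all higher, against 6.58% of all genes. Library M_768_C of the tazemetostat group stood apart, with a TMM scaling factor of 0.901, against 0.978 to 1.03 in the other libraries.

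RASGRP3 differed most between the groups, at 13.1 ± 2.02 CPM with vehicle and 20.5 ± 1.13 CPM with tazemetostat (SD, n = 3 mice each). BLNK, DAPP1 and BCL10 were also higher in each tazemetostat mouse than in any vehicle mouse, by smaller amounts. SYK, BTK, PLCG2, PRKCB and MALT1 overlapped between the groups. No member passed the threshold of 0.05 for the adjusted p over all 20301 genes tested with edgeR, of which 0.0345% did, 0.0197% higher and 0.0148% lower with tazemetostat. Of the 9 members 3 had an unadjusted p under 0.05, all higher in tazemetostat mice, against 3.34% of all genes in that direction, 3.21% in the other and 6.55% in either. The groups did not overlap for 4 members, all of them higher, against 6.58% of all genes in that direction and 6% lower. The median log2 fold change of the members was 0.03 and that of all genes tested -0.01, with 5 members above zero and 4 below. With DESeq2, 1 member, RASGRP3, passed, where 0.684% of 17533 genes did.

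The start regions of RASGRP3, DAPP1, BLNK, BTK and SYK share a short sequence, AGGAAGT, the core recognised by ETS-family factors such as PU.1. Matches were not limited to members that were higher: SYK and BTK, which overlapped, have 2 matches each. BCL10, which was higher in each tazemetostat mouse, has none in its window. That window lies wholly inside the gene, because the RefSeq start of BCL10 is 272 bases in from the start in the count table. The bases before the count table's start of BCL10 were therefore not searched. The first 4 windows are shown as examples, and that of SYK, which reaches 32 bases into the gene as the count table places it, is left out. The windows shown for RASGRP3 and BLNK also reach into their genes, by 24 and 18 bases. Each line gives the 250 bases before the RefSeq start nearest to the gene's start in the count table (GRCh38.p14), 5′ to 3′ on the strand of the gene, with every AGGAAGT, or ACTTCCT where it lies on the opposite strand, in capitals.
RASGRP3 (chr2:33436098-33436347, plus strand): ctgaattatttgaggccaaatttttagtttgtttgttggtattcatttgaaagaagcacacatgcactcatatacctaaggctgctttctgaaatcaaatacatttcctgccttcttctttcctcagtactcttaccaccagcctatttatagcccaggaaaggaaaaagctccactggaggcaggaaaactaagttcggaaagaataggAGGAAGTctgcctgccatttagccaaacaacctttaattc
DAPP1 (chr4:99816577-99816826, plus strand): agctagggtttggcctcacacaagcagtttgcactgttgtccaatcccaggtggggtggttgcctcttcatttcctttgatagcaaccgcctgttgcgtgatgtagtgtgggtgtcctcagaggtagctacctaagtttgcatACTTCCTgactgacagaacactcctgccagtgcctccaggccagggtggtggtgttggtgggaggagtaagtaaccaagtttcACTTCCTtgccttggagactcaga
BLNK (chr10:96271570-96271819, minus strand): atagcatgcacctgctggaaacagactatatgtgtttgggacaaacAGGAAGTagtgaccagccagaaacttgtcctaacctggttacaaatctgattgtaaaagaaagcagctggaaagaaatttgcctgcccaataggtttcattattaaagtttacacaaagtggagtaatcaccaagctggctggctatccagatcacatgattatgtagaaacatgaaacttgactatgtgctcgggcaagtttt
BTK (chrX:101390797-101391046, minus strand): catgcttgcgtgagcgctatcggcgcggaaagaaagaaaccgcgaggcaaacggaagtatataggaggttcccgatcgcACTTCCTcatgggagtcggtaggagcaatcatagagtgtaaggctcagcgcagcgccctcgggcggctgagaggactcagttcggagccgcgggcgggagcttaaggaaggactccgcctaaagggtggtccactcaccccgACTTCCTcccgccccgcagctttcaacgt

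AGGAAGT occurred on either strand in 5 of the 9 windows nearest to the members' starts, and in 5 of 15 when the other RefSeq starts of SYK, BTK and RASGRP3 are counted, none of which has it. Of 35116 windows of the same length across the RefSeq genes 7.01% hold it, and 8.47% of 27305 genes have it in at least 1 window. This and the other motifs were chosen with the sequences in view, and a match is a description of the letters. The member windows also differed in composition, from 39.6% G and C in RASGRP3 and 40.4% in BLNK to 77.2% in PRKCB and 78.8% in MALT1. The interferon-stimulated response element and the interferon-gamma activated site (TTCNNNGAA) were searched on both strands. Neither was found in any of the 9 windows, and 3.02% and 6.57% of all windows hold them. The octamer ATGCAAAT was found in PRKCB only (1.63% of all windows), and the E-box CACGTG in none of the 9 (6.34% of all windows).

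SYK (ENSG00000165025, chr9:90801787-90898549, plus strand), the kinase that docks on the receptor chains, was the most abundant member. Gene coordinates are hg38 as in the count table. Its level was 569, 568 and 588 CPM in vehicle mice M_766, M_769 and M_770 and 573, 488 and 625 CPM under tazemetostat (M_767, M_768, M_774). The vehicle mice lay within the range of the tazemetostat mice, and M_768 was the lowest of the 6. The log2 fold change was -0.03 (SE 0.107, 95% interval -0.27 to 0.20, edgeR adjusted p = 0.978), and it was 0.00163 without library M_768_C, in which SYK was at 392 CPM against 522 to 630 CPM in the other 8 tazemetostat libraries.

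BTK (ENSG00000010671, chrX:101349447-101390796, minus strand), the kinase of the Tec family that activates PLCG2, varied little. It stood at 184, 170 and 171 CPM in the vehicle mice and at 174, 159 and 183 CPM in the tazemetostat mice, listed in the same order as for SYK. The ranges overlapped almost completely. The fold change was 0.984 with a 95% interval of 0.857 to 1.13 (edgeR adjusted p = 0.983).

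BLNK (ENSG00000095585, chr10:96191702-96271587, minus strand), the adaptor that brings BTK and PLCG2 together, was at 63.4, 55.9 and 60 CPM with vehicle and at 69.5, 67 and 68.1 CPM with tazemetostat. All 3 tazemetostat mice were above the highest vehicle mouse, although the 9 libraries of each group overlapped (53.6 to 65.6 CPM in vehicle, 64.6 to 70.8 CPM in tazemetostat). The log2 fold change was 0.19 (SE 0.0856, unadjusted p = 0.0501, edgeR adjusted p = 0.762). BLNK shares 355 exonic bases, 9.71% of its exons, with ZNF518A on the opposite strand, and without strand the reads of the 2 genes cannot be told apart there.

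PLCG2 (ENSG00000197943, chr16:81739097-81962693, plus strand), the phospholipase, and PRKCB (ENSG00000166501, chr16:23835946-24220611, plus strand), the kinase that answers its lipid product, differed more among mice of 1 group than between the groups. PLCG2 was at 344, 415 and 489 CPM in the vehicle mice and at 423, 359 and 388 CPM in the tazemetostat mice. PRKCB followed the same order of vehicle mice, at 198, 233 and 282 CPM, and was at 244, 180 and 192 CPM in the tazemetostat mice. In both genes M_770 was the highest of the 6 mice. On the log2 scale the SD of mouse means within a group was 0.202 for PLCG2 and 0.251 for PRKCB, against 0.114 and 0.123 among the libraries of a mouse. These were the largest spreads between mice among the 9 members. The log2 fold change of PLCG2 was -0.09 (95% interval -0.38 to 0.19, edgeR adjusted p = 0.948). That of PRKCB was -0.21 (95% interval -0.54 to 0.12, edgeR adjusted p = 0.868), and it moved to -0.06 without M_770 and to -0.35 without M_767.

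RASGRP3 (ENSG00000152689, chr2:33436324-33564750, plus strand) is the exchange factor that loads RAS with GTP downstream of PLCG2. It was at 11.3, 12.8 and 15.3 CPM in vehicle mice M_766, M_769 and M_770 and at 20.9, 19.3 and 21.5 CPM under tazemetostat (M_767, M_768, M_774). These levels rest on 735 to 1482 counts per mouse. The separation also held for single libraries, which ran from 9.49 to 16.9 CPM in vehicle (median 12.7) and from 17.9 to 22.7 CPM in tazemetostat (median 20.8), so that all 9 libraries of 1 group lay above all 9 of the other. RASGRP3 was the only member of which this was true. The 9 libraries of a group come from 3 mice, so they are not independent and add no replicates.

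The fold change of RASGRP3 was 1.56 with a 95% interval of 1.29 to 1.9 (log2 fold change 0.65, SE 0.126), higher in 3 of 3 tazemetostat mice. Its unadjusted p was 0.000395, and 34 genes of 20301 had a smaller one. The edgeR adjusted p was 0.219, and an exact two-sided permutation test over mice gave 0.1, the smallest that 3 against 3 allows. The call depended on the fit: RASGRP3 passed in 5 of 16 other settings, among them DESeq2 (adjusted p = 0.00236) and limma on all 18 libraries with mice as random effects (adjusted p = 0.00294), and without mouse M_770 (adjusted p = 0.0286). The limma fit on 18 libraries used 1 correlation between the libraries of a mouse (0.423) for all genes, with no mouse effect fitted per gene. Libraries of a mouse thus counted partly as replicates in it. RASGRP3 did not pass with limma on the mouse sums (adjusted p = 0.231). The fits that called it also called more genes, 0.684% with DESeq2, 0.685% with no filter on low counts, 1.38% with the 18 libraries, 1.16% with the library letter as a block and 0.278% without M_770. The log2 fold change stayed between 0.56 and 0.77 over these settings, and the adjusted p between 0.000306, with no filter on low counts, and 0.863, without mouse M_769. The stress genes given above also separated the groups as a sum, and singly in 11 of 22 tested. Their part in the RASGRP3 difference was not tested. The RASGRP3 exons share 70 bases with the antisense gene AC020594.1, which had 54 counts over all mice.

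DAPP1 (ENSG00000070190, chr4:99816833-99870154, plus strand), the adaptor that binds PI3-kinase lipids, was at 29.7, 33 and 31.6 CPM in the vehicle mice and at 35.7, 33.6 and 41.7 CPM in the tazemetostat mice. M_768 exceeded the highest vehicle mouse only slightly, and the libraries of the groups overlapped. The log2 fold change was 0.23 (SE 0.104, unadjusted p = 0.0474, edgeR adjusted p = 0.756).

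BCL10 (ENSG00000142867, chr1:85265776-85276904, minus strand) is the adaptor and MALT1 (ENSG00000172175, chr18:58671386-58754477, plus strand) the protease with which it acts on NF-kB. BCL10 was at 15.2, 16.5 and 14.8 CPM with vehicle and at 17.1, 20.1 and 18.1 CPM with tazemetostat, with no overlap between mice (log2 fold change 0.25, SE 0.107, unadjusted p = 0.0403, edgeR adjusted p = 0.729). MALT1 was at 74.5, 78.5 and 89.6 CPM with vehicle and at 85.8, 79.4 and 83.3 CPM with tazemetostat, where the vehicle mice enclosed all 3 tazemetostat mice (log2 fold change 0.03, 95% interval -0.18 to 0.24, edgeR adjusted p = 0.978). Per gene length, MALT1 exceeded BCL10 by 2.1 ± 0.285 times in vehicle and 1.81 ± 0.213 times in tazemetostat mice, a difference within the spread (exact permutation p = 0.3).

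**Figure D1:**
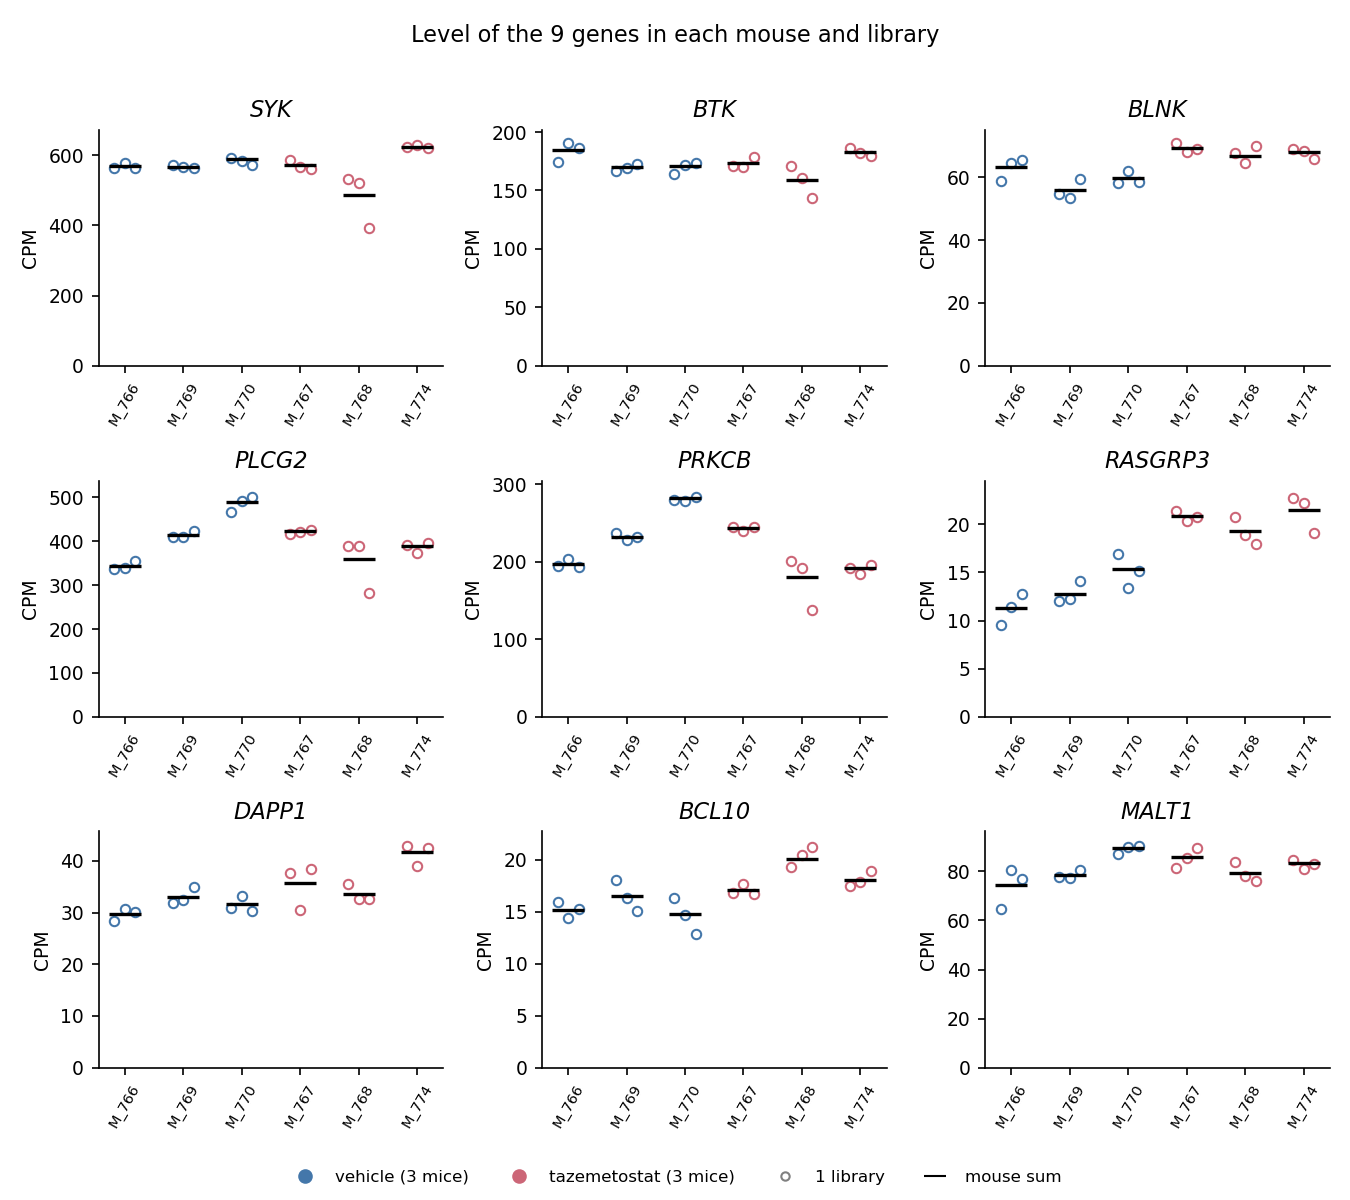
CPM of each member (y axis, from 0) in the 6 mice (x axis): open circles are single libraries, black bars the mouse sums, blue vehicle and red tazemetostat. RASGRP3 runs from 11.3 to 15.3 CPM in vehicle mice and from 19.3 to 21.5 CPM in tazemetostat mice, while the lowest open circle of SYK, at 392 CPM, and of PLCG2, at 283 CPM, belong to library M_768_C.

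The 8 members other than RASGRP3 had 95% intervals of the fold change between 0.688 and 1.4 (edgeR, 3 mice per group). The interval excluded no change only for BCL10 and DAPP1 among them, without adjustment for the number of genes, and for SYK, BTK, PLCG2, PRKCB and MALT1 it allowed a change in either direction. In bulk RNA a smaller share of cells with a transcript and less of it per cell cannot be told apart.

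**Figure D2:**
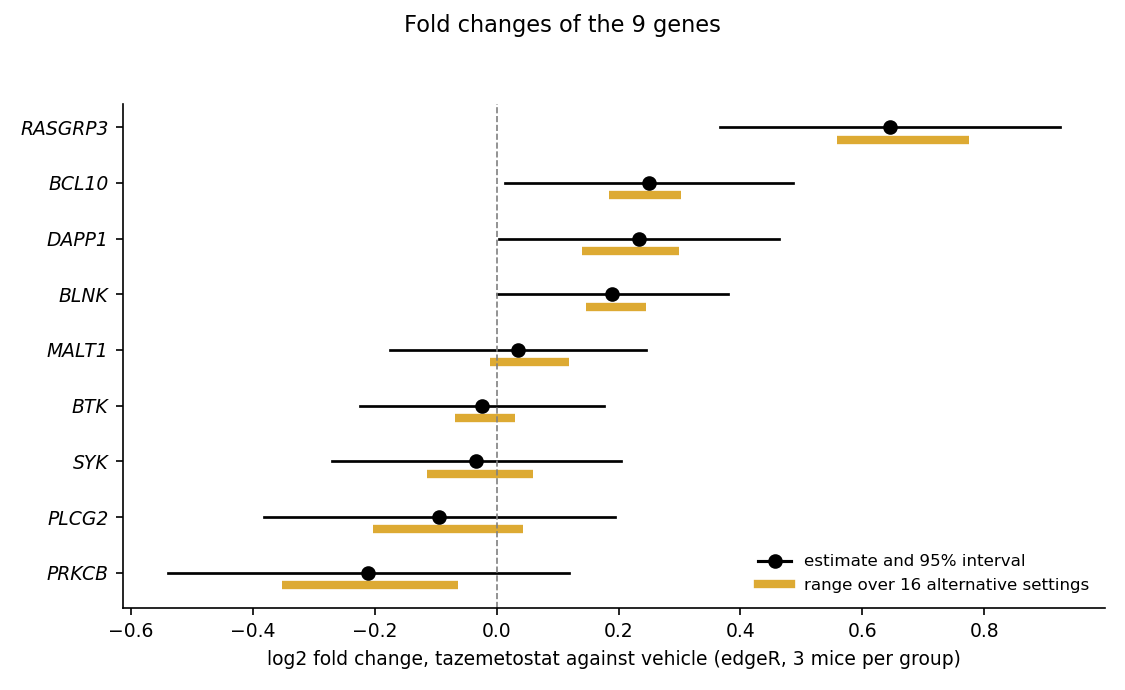
Log2 fold change of each member, tazemetostat against vehicle (x axis), with its 95% interval from edgeR on 3 mice per group (black) and the range of the estimate over 16 alternative settings (yellow). RASGRP3 is highest, at 0.65, with an interval that overlaps that of BCL10, and the interval lies above 0 for RASGRP3, BCL10 and DAPP1 and includes 0 for the other 6 genes.

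Levels of different genes were compared as CPM per kilobase of the gene length deposited with the counts. SYK was highest, at 109 ± 8.62 (SD over 6 mice), above 98.4% of tested genes and 72.1 times the level of RASGRP3. BTK followed at 37.9 ± 2.05, PLCG2 at 30 ± 3.88 and PRKCB at 20 ± 3.5. BLNK was at 17.5 ± 1.43, and PRKCB exceeded it in only 4 of 6 mice, so their order is not settled by these data.

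DAPP1 (7.52 ± 0.919) and MALT1 (7.1 ± 0.474) per kilobase also overlapped, with DAPP1 higher in 5 of 6 mice. BTK and PLCG2 had overlapping ranges, although BTK was higher in 6 of 6 mice. BCL10 (3.67 ± 0.422) and RASGRP3 (1.51 ± 0.387) closed the order in every mouse, and the range of RASGRP3 did not reach that of BCL10. Without division by length, 3 of 9 members kept their place in the order. In mean CPM over 6 mice PLCG2 (403) and PRKCB (221) were above BTK (173), and MALT1 (81.8) was above BLNK (64) and DAPP1 (34.2). BCL10 and RASGRP3 were then nearly level, at means of 16.95 and 16.83 CPM over 6 mice.

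Most members have paralogs that do the same work in other cell types. ZAP70, the T-cell counterpart of SYK, was detected at 6.77 ± 0.629 CPM per kilobase (SD, 6 mice), and SYK exceeded it 14.6 to 18.4 times. BTK exceeded TEC 40.9 to 63.4 times, whereas the Tec-family kinase BMX had 12 counts over all mice and the BLNK relative LCP2 29. TXK was at 0.131 ± 0.0238, and CLNK, a relative of BLNK, at 0.0615 ± 0.031 CPM per kilobase.

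The relative of PLCG2 that is found in most tissues, PLCG1, was at 34.5 ± 4.62 CPM per kilobase, and the ratio of PLCG2 to PLCG1 ran from 0.703 to 1.07, below 1 in all mice except M_770. Without division by length the mean over 6 mice was higher for PLCG2 (403 CPM) than for PLCG1 (333 CPM). Among the protein kinase C genes PRKCB was the highest, followed by PRKCD (10 ± 0.66), PRKCA (8.11 ± 0.885), PRKCE (5.2 ± 1.01) and PRKCQ (2.27 ± 0.176). In mean CPM PRKCB was also the highest (221), but PRKCA (90.4) and PRKCE (51.5) were above PRKCD (34). DAPP1 was far below its relative PLEKHA2 (86.5 ± 11.2).

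Per kilobase, RASGRP3 was below both tested genes of its own family, RASGRP1 and RASGRP2. Without division by length its mean over 6 mice was 16.8 CPM, above RASGRP1 (15.1 CPM) and still below RASGRP2 (237 CPM). RASGRP2 was at 38.9 ± 3.92 and RASGRP1 at 2.48 ± 0.233 CPM per kilobase, and RASGRP4 had 22 counts over all mice. The ratio of RASGRP3 to RASGRP2 was 0.0236, 0.0279 and 0.0328 in vehicle mice M_766, M_769 and M_770 and 0.0537, 0.0452 and 0.0574 under tazemetostat (M_767, M_768, M_774). The lowest tazemetostat ratio lay above the highest vehicle ratio (exact permutation p = 0.1, adjusted p = 0.26 over 13 ratios). This was fixed in advance, because RASGRP3 was higher and RASGRP2 lower in each tazemetostat mouse, so the ratio adds no evidence. RASGRP2 itself was lower in each tazemetostat mouse, at 256 ± 6.59 CPM with vehicle and 217 ± 14.7 CPM with tazemetostat (log2 fold change -0.24, edgeR adjusted p = 0.648). RASGRP1 was at 15.4 and 14.9 CPM (adjusted p = 0.978). Of 14 paralogs tested, 4 were lower in each tazemetostat mouse and 0 higher, against 6% and 6.58% of all genes. Beside RASGRP2 the lower ones were CLNK, PLCG1 and ZAP70, with log2 fold changes of -1.08, -0.27 and -0.21 (edgeR adjusted p = 0.581, 0.691 and 0.743). PRKCE went the other way, with overlapping groups (log2 fold change 0.37, edgeR adjusted p = 0.654). In all, 8 paralogs lay above zero and 6 below, with a median log2 fold change of 0.002.

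**Figure D3:**
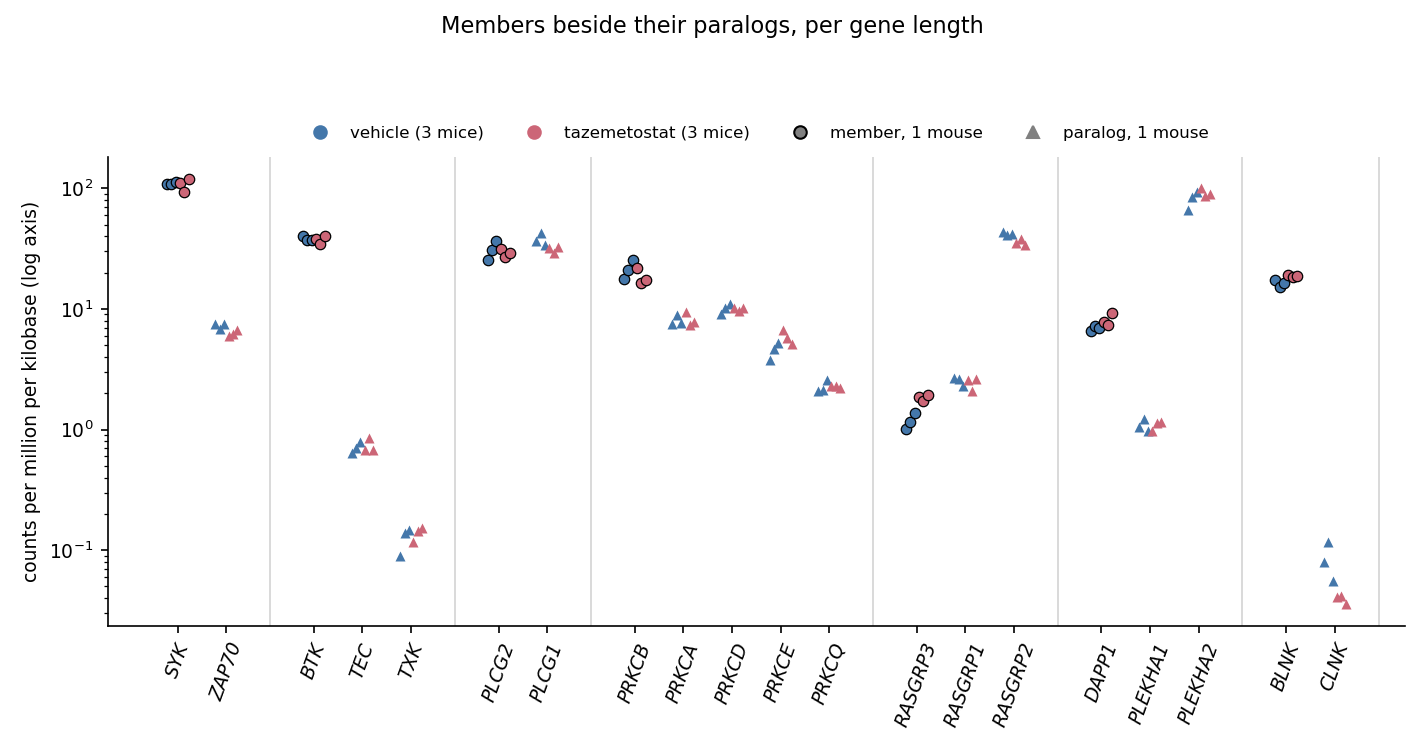
CPM per kilobase of gene length on a log axis for members (circles with black edges) and their tested paralogs (triangles), 1 point per mouse, blue vehicle and red tazemetostat. SYK stands 14.6 to 18.4 times above ZAP70, whereas RASGRP3, at 1.51 on average, lies below RASGRP1 and RASGRP2.

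Among 98 other genes of the pathway, 92 were tested and 0 passed over all genes with edgeR. At an unadjusted p under 0.05, 4 were higher and 4 lower, and their median log2 fold change was 0.02. The groups did not overlap for 6 higher and 4 lower genes, shares close to those of all genes given above. With limma on all 18 libraries and mice as random effects 1 gene, LAT2, passed (adjusted p = 0.0076), where 1.38% of all genes did. LAT2 also passed with no filter on low counts (0.685% of all genes) and with the library letter as a block (1.16%). CD72 passed without mouse M_766. With limma on the mouse sums LAT2 did not pass (adjusted p = 0.466), and with DESeq2 0 passed.

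Of the receptor and its co-receptors, 8 of 8 were tested, 4 above and 4 below zero. CD72, an inhibitory co-receptor, was at 145 ± 36.7 CPM with vehicle and 184 ± 7.54 CPM with tazemetostat (log2 fold change 0.34, adjusted p = 0.756). Vehicle mouse M_766, at 187 CPM, was as high as the tazemetostat mice, and without it the gene passed (log2 fold change 0.57, adjusted p = 0.0416). M_766 was the only vehicle mouse that overlapped them, so leaving it out was bound to widen the difference. In that fit 26 of all genes passed, against 7 with all mice. CD22, another inhibitory co-receptor, showed a log2 fold change of -0.16 (adjusted p = 0.898).

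Among the Src-family and Tec-family kinases, 8 of 10 were tested and the median was -0.10. BLK, a B-cell kinase of the Src family, was at 264, 240 and 240 CPM with vehicle and at 186, 213 and 199 CPM with tazemetostat, without overlap (log2 fold change -0.31, SE 0.0916, edgeR adjusted p = 0.477). LCK, the Src-family kinase best known from T cells, also did not overlap, at 12.5 ± 1.9 CPM with vehicle and 9.48 ± 0.587 CPM with tazemetostat (log2 fold change -0.39, adjusted p = 0.612).

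Of 14 tested adaptors and exchange factors, 7 lay above zero and 7 below. LAT2, a membrane adaptor that serves B cells as LAT serves T cells, was at 60.2, 69.2 and 76.9 CPM with vehicle and at 97.2, 99 and 79.6 CPM with tazemetostat. Its groups did not overlap, and the log2 fold change was 0.42 (SE 0.118, edgeR adjusted p = 0.465). GRB2, the adaptor that couples receptors to the RAS activator SOS, showed a log2 fold change of 0.22 (adjusted p = 0.758).

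In the PI3-kinase branch the 2 genes with the smallest p were FOXO1, a transcription factor held out of the nucleus by this branch (log2 fold change 0.20), and the adaptor PIK3AP1 (0.19). In the calcium branch they were STIM1, the sensor of stored calcium (-0.27), and PPP3R1, the regulatory subunit of calcineurin (0.16). The RAS and MAP kinase branch had 9 of 13 genes above zero, with MAP2K1 (0.16) next to RASGRP2, and the list of NF-kB activation had 9 of 12 above zero, led by TAB2 (0.13) and CASP8 (0.13).

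Of 13 negative regulators tested, 6 lay above zero and 7 below. CYLD, a deubiquitinase that restrains NF-kB, was higher in each tazemetostat mouse (52.9 ± 8.27 and 65.2 ± 2.64 CPM, log2 fold change 0.30, adjusted p = 0.671). The phosphatase PTPN6 showed a log2 fold change of 0.38 (adjusted p = 0.764). The messenger RNA of EZH2, the target of the drug, showed a log2 fold change of 0.01 (adjusted p = 0.992).

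**Figure D4:**
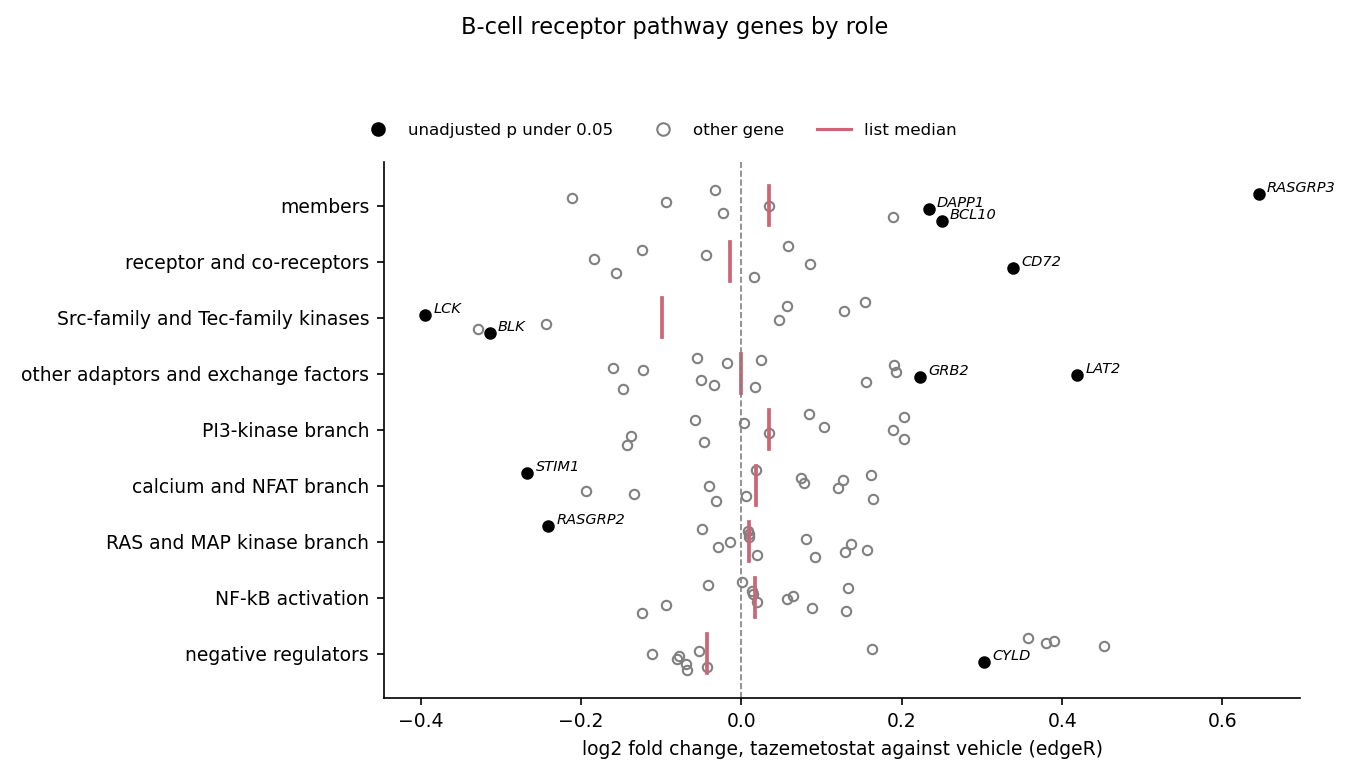
Log2 fold change, tazemetostat against vehicle (x axis), of each tested pathway gene, 1 row of points per list, with genes of an unadjusted p under 0.05 filled and named and the list median as a red line. RASGRP3, at 0.65, is the point farthest from 0, and list medians run from -0.10 to 0.03.

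Members differed in how they varied over the 18 libraries, which is described here with no test because libraries share mice and the groups differ. PLCG2 and PRKCB were the most alike (Pearson r = 0.925 of log2 CPM over 18 libraries), followed by SYK and BTK (0.793). RASGRP3 was most like BLNK (0.725) and DAPP1 (0.71), followed by MALT1 (0.53) and BCL10 (0.51). BCL10 and PRKCB were the least alike (-0.64). In library M_768_C, SYK (392 CPM), BTK (143 CPM), PLCG2 (283 CPM) and PRKCB (138 CPM) had their lowest level of all 18 libraries. BCL10 had its highest there (21.2 CPM). How far the r values of these members, with each other and with other genes, rest on that library was not tested.

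Among 9903 genes whose mean log2 CPM reached 3, those most like RASGRP3 were ATAD1, a mitochondrial ATPase, APOL2, and TAP2, a peptide transporter of antigen presentation (r = 0.956, 0.955 and 0.951 over 18 libraries). For PLCG2 they were ACACA, PFAS and SLC7A1 (0.978 to 0.976), and for PRKCB HUWE1, NCAPD2 and GANAB (0.971 to 0.96). SYK was most like PITRM1, DOK3 and MTMR1 (0.955 to 0.924). DOK3 is itself an adaptor that restrains B-cell receptor signalling.

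For BTK the most alike genes were VAT1L, LRMP and GORASP1 (r from 0.908 to 0.877), for BLNK CD53, PPT1 and GPR183 (0.9 to 0.871), and for MALT1 EIF4G2, ANKRD44 and ZFP91 (0.891 to 0.886). CD53 and GPR183 are membrane proteins of leukocytes. DAPP1 was most like ARMC8, CSPP1 and HDAC9 (0.886 to 0.859) and BCL10 like SERINC1, RAB21 and RNF149 (0.907 to 0.809). Such values rank genes by likeness in these libraries and share their depth and scaling.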

How the data were processed

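The authors deposited whole-number counts of reads per Ensembl gene for 18 libraries, not normalized as far as the values show. The submitters' processing notes name hg38 and DESeq2 without a role. Which aligner and counter were used, and whether strand was, is not given in the sources used here. Each of the 58735 genes had the coordinates of GENCODE release 29, and the deposited gene length equals the summed exon length there for all 9 members. Because mice were treated, the libraries A, B and C of a mouse, whose meaning is not stated, were summed (n = 3 per group). The sums were tested with edgeR 4.0.16 (quasi-likelihood, TMM, filterByExpr) under R 4.3.3, with Benjamini-Hochberg adjusted p-values over 20301 genes and a threshold of 0.05. Genes left out held 0.0602% of counts. CPM use TMM factors, except for marker sums. Single values were compared by two-sided exact permutation. Promoters are RefSeq windows matched by symbol for 9 of 9 members. Alternatives included DESeq2 1.42.0 and limma 3.58.1, and the edgeR steps were tested on simulated data. The members and gene lists were chosen with earlier results of these data known. The genes named are the members, the 2 of each list with the smallest p, paralogs, EZH2 and the 3 genes most like each member. Some genes of these lists are counted but not reported here by name.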

Additional observations from a re-analysis of the deposited data

Results flagged for a closer look

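Of 18 sets of 9 libraries (9 members in each group), 2 held a library whose distance to its nearest neighbour took up an unusually large part of the range, where chance gives about 1 in 20 for independent values. The libraries of a group come from 3 mice and are not independent, so that rate does not hold for them. Both were library M_768_C of the tazemetostat group: SYK was at 391.9 CPM there, against 522.1 CPM in the next library, and PLCG2 at 283.2 CPM, against 372.3 CPM. In that library 6 of the 9 members had their lowest level of the tazemetostat group, and BCL10 had its highest.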

How the results depend on the processing

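Among all genes, 7 passed the threshold, against 252 with no low-count filter, 1 with at least 10 CPM in 3 mice, 120 with DESeq2, 225 with limma on all 18 libraries, 5 with limma on the mouse sums and 190 with the letter as a replicate block. Leaving out 1 mouse gave 0 to 59, the latter without M_770. Of the members 0 passed, against 1, RASGRP3, without the filter, with DESeq2, with the 18 libraries and with the replicate block (log2 fold change 0.66, adjusted p = 0.00664), and 0 to 1 with a mouse left out (M_770). Of the other pathway genes 0 passed, against 1, LAT2, without the filter, with the 18 libraries and with the replicate block, and 0 to 1 with a mouse left out (CD72, without M_766). The log2 fold change of SYK turned to 0.00163 without library M_768_C, and that of EZH2 to -0.025 with upper-quartile factors and -0.0063 with the stricter filter. With a mouse left out it ran from -0.11 to 0.060 for SYK, -0.068 to 0.031 for BTK, -0.20 to 0.044 for PLCG2, -0.011 to 0.12 for MALT1 and -0.021 to 0.054 for EZH2, so the signs of these genes are not settled. The cause was not tested. The letters share only a name, so no pairing was assumed.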
